A study of Mus musculus with 10 samples.

Results

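Replication-dependent histone genes encode the bulk of the nucleosome: the core histones H2A, H2B, H3 and H4, and the linker histone H1, which binds DNA where it enters and leaves the nucleosome. They are transcribed mainly in S phase, when new DNA has to be packaged, and most lie in dense clusters at which the coactivator NPAT gathers in nuclear structures called histone locus bodies. Their mRNAs end in a conserved stem-loop, bound by the stem-loop binding protein SLBP, in place of a poly(A) tail. Microglia, the resident macrophages of the brain, divide slowly in the healthy adult.

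The members described here are the protein-coding genes of the GENCODE M21 annotation of the mouse genome (GRCm38, the same assembly as mm10) whose symbols begin with Hist1h, Hist2h, Hist3h or Hist4h, 67 of 21951 protein-coding genes. The histone mark H3K4me3 (H3 trimethylated at lysine 4) sits at active and poised promoters. It was measured by ChIP-seq in 2 libraries from sorted wild-type microglia (strain C57/Bl6, CD45+ CD11b+ CX3CR1+ whole cells, with an intact Sall1 enhancer, gated in the study's methods as CD45 low), each against an input library, and contacts of marked promoters were measured in wild-type microglia by PLAC-seq, a proximity ligation assay with an antibody enrichment step. The series holds 10 samples, and its Hi-C libraries, from wild-type and Sall1 Enhancer Knockout microglia, were not used here, and all values below are wild-type. The labels do not give the age of the mice or how many were pooled. The deposited lists gave 27845 peaks at a depth of 12.8 M tags for replicate 1, and 26574 peaks at 13.4 M tags for replicate 2, where M stands for mega. As a check of the labelled cell type, all 8 microglia marker genes were marked, with a median value of 231.2 tags (defined below). Of 23 marker genes of other cell types 9 were marked, namely 2 of 5 for neurons, 2 of 4 each for astrocytes and oligodendrocytes, 2 of 3 for endothelial cells, 1 of 3 for border macrophages and none of 4 for monocytes and neutrophils. Their list medians lay between 10.4 and 35.5 tags, except for oligodendrocytes at 100.9 tags, where Mbp had 162.8 tags in replicate 1 and 210.3 tags in replicate 2. The part of such cells in the histone values was not tested.

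The value of a peak is the number of tags in it per 10 M tags of its library. A gene counted as marked if both replicates had a peak at most 1 kb from one of its transcription start sites (TSSs), and its value is that of the tallest such peak. Because the cells were measured in bulk, fewer cells with the mark and less mark per cell cannot be told apart.

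The members fell into 7 runs in which neighbouring TSSs lie within 100 kb of each other. Hist1 on chromosome 13 held 54 members in 4 runs. The first, chr13:21716143-21833771, held 18 members, the second, chr13:22035568-22043214, held 5, the third, chr13:23531050-23763666, held 29, and the last, chr13:23934156-23934462, held only the divergent pair Hist1h2ba and Hist1h2aa. Hist2 on chromosome 3, chr3:96219865-96269752, held 10 members, Hist3 on chromosome 11 held Hist3h2ba and Hist3h2a, and Hist4 on chromosome 6 was the single gene Hist4h4. Within the runs of 3 or more members, the only other protein-coding gene with a TSS was Hfe, which encodes a regulator of iron uptake. Hfe had values of 102.8 tags in replicate 1 and 80.6 tags in replicate 2.

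Within each core histone class the members are close copies of each other. The 13 H4 genes encoded 1 protein of 103 residues from 12 distinct coding sequences, and the 12 H3 genes encoded 2 proteins that were at least 99.3% identical. The 18 H2A genes encoded 9 proteins and the 18 H2B genes 11, with pairwise identities of at least 89.1% and 92.1% among proteins of equal length. The 6 H1 genes each encoded a protein of their own. In 62 of the 67 genes every annotated transcript had a single exon.

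The 3′ end carried the feature that unites the family. A 16-base match to the histone stem-loop consensus was found 21 to 58 bases after the stop codon in 65 of 67 members, and in 0.346% of the 20549 autosomal protein-coding genes searched over the same 300 bases. This background includes the members, and outside them 6 genes had a match, among them H2afx, which encodes the DNA damage variant H2A.X. The members without a match were Hist2h2be and Hist1h2an. The 65 matches were of 8 kinds, shown here from the GRCm38 sequence with 5 bases on each side, 5′ to 3′ on the strand of the gene, with the stem-loop in capitals and 1 gene named for each kind. The capitals lie at chr11:58955172-58955187 (plus strand) in Hist3h2a, chr3:96220333-96220348 (plus) in Hist2h2ab, chr13:23535889-23535904 (plus) in Hist1h3g and chr3:96220418-96220433 (minus) in Hist2h2ac. In the H4 genes they lie at chr6:136803998-136804013 (minus) in Hist4h4, chr13:21735437-21735452 (plus) in Hist1h4j, chr3:96262939-96262954 (minus) in Hist2h4 and chr13:23760800-23760815 (minus) in Hist1h4a.
Hist3h2a: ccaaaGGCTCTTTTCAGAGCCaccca
Hist2h2ab: aaaaaGGCTCTTTTAAGAGCCaccaa
Hist1h3g: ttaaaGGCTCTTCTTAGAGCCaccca
Hist2h2ac: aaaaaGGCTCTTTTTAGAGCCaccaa
Hist4h4: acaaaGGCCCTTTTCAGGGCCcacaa
Hist1h4j: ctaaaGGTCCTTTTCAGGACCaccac
Hist2h4: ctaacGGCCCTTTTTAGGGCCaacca
Hist1h4a: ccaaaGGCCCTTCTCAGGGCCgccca
The first kind occurred in 41 genes and the second in 9 genes, each in all of H1, H2A, H2B and H3, while Hist1h3g and Hist2h2ac each had a kind of their own. The kind of Hist4h4 occurred in 8 genes, those of Hist1h4j and Hist2h4 in 2 each and that of Hist1h4a in 1. Thus the 13 H4 genes used 4 kinds of stem-loop that no other class used, and the other 52 matched genes used 4 kinds that no H4 gene used.

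The promoters also differed by class. RefSeq promoters of 250 bases before to 50 bases after the gene start (GRCm38.p6) matched 62 of 67 members, all but Hist1h2bc, Hist1h3a, Hist1h3f, Hist2h2be and Hist2h4, and 20085 autosomal protein-coding promoters served as the background. Each motif was searched on both strands. The CCAAT box (CCAAT), the site of the factor NF-Y, was present in all 6 H1, 18 H2A, 16 H2B and 10 H3 genes with a promoter, but in 3 of 12 H4 genes, against 38.1% of all promoters. The octamer (ATTTGCAT), the site of OCT1, was present in 7 of 18 H2A and 7 of 16 H2B genes and in no gene of the other classes, against 1.67% of all promoters. The H1 box (AAACACA) was present in 5 of 6 H1 genes, 2 H2A and 2 H2B genes, against 6.25% of all promoters. The TATA box (TATAAA) was present in 35 of 62 members, against 12.7% of all promoters. The promoters of divergent H2A and H2B genes overlap, so 1 site can count for both classes. Examples are the octamer of Hist1h2ah and Hist1h2bk, that of Hist1h2ae and Hist1h2bg, and the H1 box of Hist1h2aa and Hist1h2ba. These are matches of letters, and binding was not measured.

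The 120 bases before the RefSeq start are shown for the member of each class with the tallest H3K4me3 among those whose window holds the motif of its class, taking the first RefSeq promoter of each gene, in lower case with all motif matches in capitals. Hist1h1e (chr13:23622559-23622678, minus strand) shows the H1 box, CCAAT box and TATA box in series. Hist3h2a (chr11:58954565-58954684, plus strand) and Hist2h2bb (chr3:96269580-96269699, plus strand) show the octamer beside the CCAAT box. Hist1h2be, a taller H2B gene, holds the octamer only in its other RefSeq promoter, chr13:23585921-23586220, near its start codon. Hist1h3e (chr13:23562386-23562505, minus strand) shows the CCAAT box alone, and Hist4h4 (chr6:136804432-136804551, minus strand), the tallest H4 gene with a promoter, holds none of the 4 motifs.
Hist1h1e: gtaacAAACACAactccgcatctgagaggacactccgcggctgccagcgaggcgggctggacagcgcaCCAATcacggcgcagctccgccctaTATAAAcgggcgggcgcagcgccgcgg
Hist3h2a: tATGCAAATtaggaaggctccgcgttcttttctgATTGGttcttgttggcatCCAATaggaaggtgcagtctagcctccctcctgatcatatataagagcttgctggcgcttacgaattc
Hist2h2bb: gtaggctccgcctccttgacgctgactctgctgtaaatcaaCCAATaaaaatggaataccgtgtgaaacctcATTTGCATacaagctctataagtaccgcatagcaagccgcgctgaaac
Hist1h3e: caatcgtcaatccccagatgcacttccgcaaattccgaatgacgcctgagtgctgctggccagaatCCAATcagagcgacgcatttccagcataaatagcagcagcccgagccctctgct
Hist4h4: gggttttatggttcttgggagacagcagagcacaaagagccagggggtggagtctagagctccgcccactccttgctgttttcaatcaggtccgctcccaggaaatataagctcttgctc

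H3K4me3 was called at most of the family. Of the 67 members, 60 were marked in both replicates, or 89.6%, against 59.4% of the 20720 autosomal protein-coding genes. With the peak on the TSS itself, 17 members were marked, and the share of all genes under that rule is not given here. The centre of the tallest peak lay a median of 216.5 and 243 bp from the TSS of marked members in replicates 1 and 2. For all marked autosomal genes it was 178 and 179 bp. Within 1 kb, no member had a peak in a single replicate, against 599 of all the autosomal genes. The level of the mark was low for promoters that carried it. Marked members had a median value of 88.8 tags in replicate 1 and 81.7 tags in replicate 2, against 215.8 and 222.3 tags for all 12304 marked autosomal genes, so that the members' median was 0.411 and 0.368 of that of all marked genes. Of the 60 marked members, 3 lay above the median of all marked genes (Hist4h4, Hist2h4 and Hist3h2a). The lowest 10% of all marked genes held 8 members, or 13.3% of them, which is near the share of all genes. The values spread from 6.23 to 235.3 tags in replicate 1 and from 9.7 to 266.3 tags in replicate 2. With 2 libraries of 1 genotype there is no test of these levels.

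**Figure D1:**
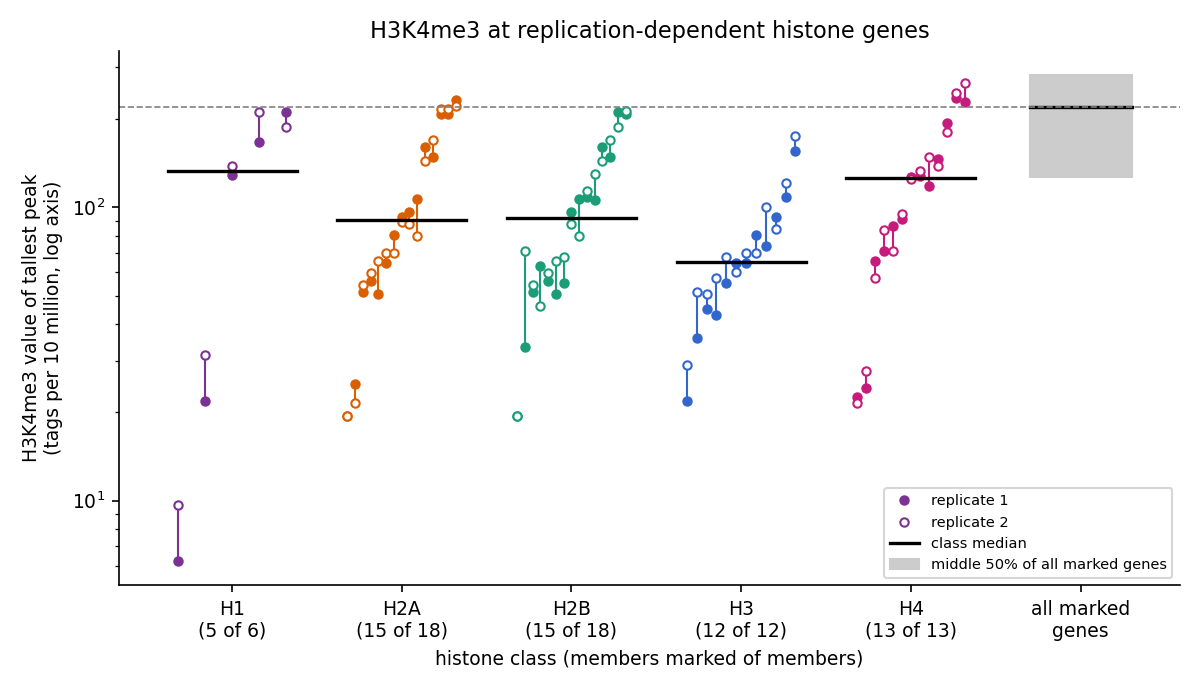
H3K4me3 value of the tallest peak within 1 kb of a TSS (tags per 10 M, log axis) for each marked histone gene, by class; filled points are replicate 1, open points replicate 2, black lines class medians, and the grey box at right the middle 50% of all 12304 marked genes with the median as a dashed line. H3 genes had the lowest class median (65.0) and H1 genes the highest (133.2), and 57 of the 60 members lie below the median of all marked genes.

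Among the linker histone genes, Hist1h1e (H1.4) had 211.9 and 187.2 tags in replicates 1 and 2, and Hist1h1c (H1.2) had 166.7 and 211.1 tags. Hist1h1a (H1.1) followed with 128.5 and 138.0 tags. Hist1h1b (H1.5) had 21.8 and 31.3 tags, and Hist1h1t, the testis-specific H1, had 6.23 and 9.7 tags, the lowest of all marked members. Under the 1 kb limit the class therefore spanned most of the range of the family. Its 2 lowest genes were separated from its other 3 in both replicates. For Hist1h1b this depended on the limit, since taller peaks lay just outside it. They had 130.9 tags in replicate 1 and 175.3 tags in replicate 2. Their centres lay 63.074 and 63.044 kb from the first TSS of the run, and the Hist1h1b TSS lay at 64.5 kb. Hist1h1d (H1.3) had no peak within 1 kb of its annotated TSS, chr13:23553262, but RefSeq starts this gene 1770 bp downstream, and within 1 kb of that start lay peaks of 116.1 tags in replicate 1 and 140.2 tags in replicate 2.

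Among the H2A genes, which encode a core histone that pairs with H2B, Hist3h2a was the tallest with 232.2 and 220.8 tags. Hist2h2ab and Hist2h2ac read the same peaks, with 208.0 and 215.6 tags. Hist1h2ak had 148.0 and 169.3 tags, and Hist1h2ac had 160.5 and 144.0 tags. At the low end, Hist1h2ad had 19.5 and 19.4 tags and Hist1h2af had 24.9 and 21.6 tags. The remaining marked H2A genes ranged from 50.6 to 106.7 tags in replicate 1 and from 54.5 to 88.8 tags in replicate 2. In replicates 1 and 2, Hist1h2ai had 106.7 and 79.8 tags, Hist2h2aa1 92.7 and 88.8, Hist2h2aa2 80.2 and 70.1, Hist1h2ab 64.7 and 70.1, Hist1h2ah 50.6 and 65.6, and Hist1h2ag 51.4 and 54.5. Hist1h2ae and Hist1h2an lay within the same ranges. The tallest peaks of Hist2h2aa2 are also those of the H3 gene Hist2h3c2, and Hist2h2aa1 shares its own with Hist2h3c1 in replicate 1. With peaks counted only for their nearest TSS, Hist2h2aa2 had 14.8 and 19.4 tags and Hist2h2aa1 76.3 and 88.8 tags.

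Among the H2B genes, Hist2h2be had 208.0 and 213.3 tags, Hist1h2be 211.9 and 187.2 tags, and Hist1h2bn 148.0 and 169.3 tags. The replicate 1 peak of Hist2h2be is also the tallest peak of Hist2h2ab and Hist2h2ac. With peaks counted only for their nearest TSS, Hist2h2be had no peak in replicate 1 and 124.6 tags in replicate 2. The most upstream annotated TSS of Hist1h2be, chr13:23621124, lies beside Hist1h1e, whose peak it shares, while its start codon lies at chr13:23585956. The tallest peak within 1 kb of that codon had 127.8 and 122.3 tags. At the low end, Hist1h2bf had 19.5 and 19.4 tags. Hist3h2ba had 33.5 tags in replicate 1 and 70.9 tags in replicate 2, the largest ratio between replicates in the family. The other marked H2B genes ranged from 50.6 to 160.5 tags in replicate 1 and from 46.2 to 144.0 tags in replicate 2. Hist1h2bc had 160.5 and 144.0 tags, Hist2h2bb 106.0 and 129.8, Hist1h2bl 106.7 and 79.8, Hist1h2bm 63.1 and 46.2, Hist1h2bk 50.6 and 65.6, and Hist1h2bj 51.4 and 54.5. Hist1h2bh, Hist1h2bg, Hist1h2bp and Hist1h2bb lay within the same ranges.

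All 12 H3 genes were marked, with the lowest median of the 5 classes. Hist1h3f led with 155.0 and 175.3 tags, followed by Hist1h3e with 108.3 and 120.8 tags and Hist2h3c1 with 92.7 and 84.3 tags. Hist1h3d (21.8 and 29.1 tags) and Hist1h3g (35.8 and 51.5 tags) were the lowest. Hist1h3a had 74.0 tags in replicate 1 and 1.35 times as many in replicate 2. Among the others, Hist2h3c2 had 80.2 and 70.1 tags, Hist1h3b 64.7 and 70.1, Hist2h3b 64.7 and 60.4, and Hist1h3h 45.2 and 50.7. Hist1h3c and Hist1h3i lay between 42.8 and 55.3 tags in replicate 1 and between 57.4 and 67.9 tags in replicate 2. The tallest peaks of Hist1h3c lay 746 and 724 bp from its TSS in replicates 1 and 2. They are also the tallest peaks of Hist1h2bb, and those of Hist1h3b are also those of Hist1h2ab. With peaks counted only for their nearest TSS, neither Hist1h3c nor Hist1h3b was marked in both replicates. The H3 median was 64.7 tags in replicate 1 and 69.0 tags in replicate 2.

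All 13 H4 genes were marked as well, with medians of 118.4 and 124.6 tags. Hist4h4, the only member on chromosome 6, had 228.3 and 266.3 tags, Hist2h4 had 235.3 and 245.4 tags, and Hist1h4h had 194.0 and 180.5 tags. Hist1h4m (22.6 and 21.6 tags) and Hist1h4n (24.2 and 27.6 tags) were far below the rest of the class. The other H4 genes ranged from 65.4 to 146.5 tags in replicate 1 and from 57.4 to 148.4 tags in replicate 2. Of those with an interaction, Hist1h4d had 146.5 and 138.7 tags, Hist1h4j 127.8 and 132.8, Hist1h4c 127.0 and 124.6, Hist1h4k 91.2 and 94.7, and Hist1h4i 65.4 and 57.4. Hist1h4a, Hist1h4b and Hist1h4f lay within the same ranges. Genes that encode 1 identical protein thus spread from 22.6 to 235.3 tags in replicate 1 and from 21.6 to 266.3 tags in replicate 2.

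By location, the 10 Hist2 genes were all marked, with medians of 99.3 and 109.3 tags in replicates 1 and 2. In Hist1, the first run had medians of 59.6 and 59.7 tags over 14 marked of 18 members, and the second had 51.4 and 57.4 tags over 5 of 5. The third run had 96.6 and 94.0 tags over 28 of 29 members. The last run, Hist1h2ba and Hist1h2aa, which encode the testis-specific H2B and H2A, had no mark, and the nearest peak to either TSS lay at least 54388 bp away in replicate 1 and 101852 bp in replicate 2. Of the 50-base words within 500 bp of these TSSs, 86.3% and 99.2% occurred once in the genome.

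**Figure D2:**
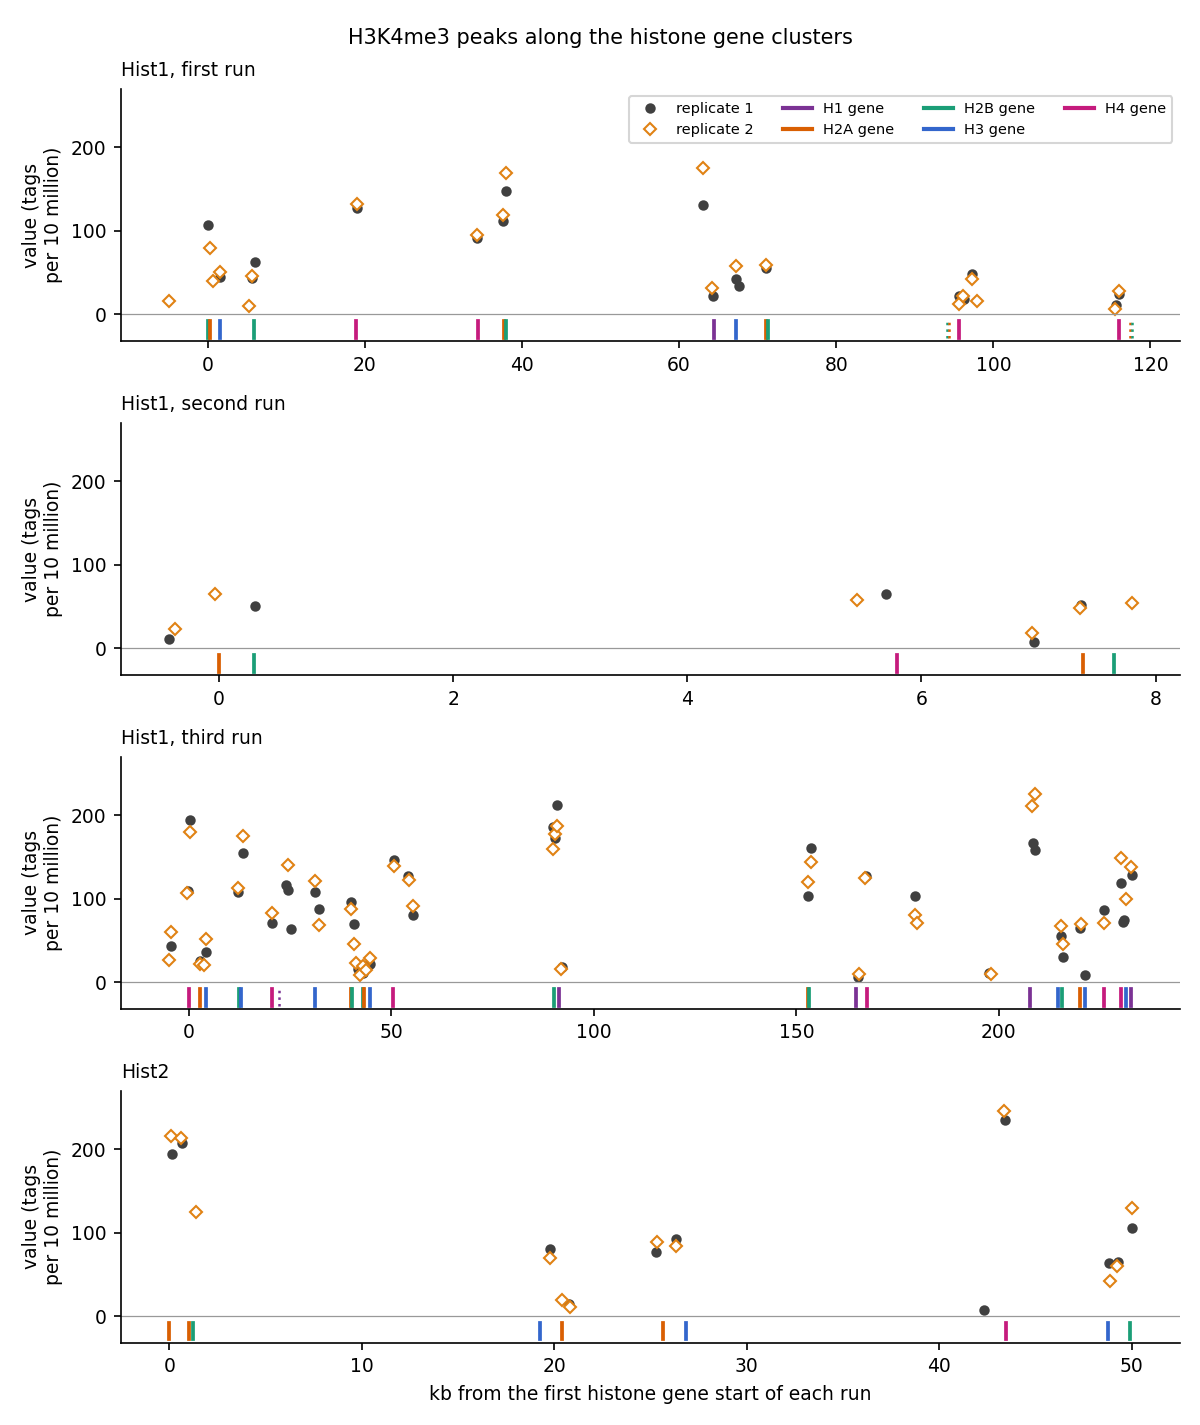
H3K4me3 peaks (tags per 10 M) along 4 runs of histone genes by distance in kb from the first TSS of each run; filled circles are replicate 1, open diamonds replicate 2, and ticks below 0 mark TSSs coloured by class, dotted where the gene was not marked. Peaks clustered at TSSs in both replicates, and the 2 dotted pairs at the right of the first run are the 4 unmarked duplicate genes.

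The replicates gave much the same values at these genes. The log2 ratio of replicate 2 over replicate 1 had an SD of 0.27 over the 60 marked members, against 0.31 over all marked genes, and 58 of the 60 ratios were within 1.5-fold, against 11587 of 12304. The exact 95% counting interval of the ratio left out 1 for 6 members, or 10.0%, against 26.6% of all marked genes. These intervals cover counting error only. They are wider where tags are fewer, and the members had lower values than all marked genes, so these shares do not compare agreement. The 6 were Hist3h2ba (ratio 2.12, interval 1.46 to 3.11), Hist1h1c (1.27, interval 1.06 to 1.52), Hist1h3a (1.35, interval 1.03 to 1.78) and Hist1h4a (1.25, interval 1.01 to 1.56), which were higher in replicate 2, and the pair Hist1h2bl and Hist1h2ai, which share a peak that was lower in replicate 2 (0.748, interval 0.575 to 0.970).

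Dense packing meant that genes often shared a peak. The tallest peaks of the 60 marked members were 45 distinct peaks in replicate 1, of which 14 served 2 or more members, and 47 distinct peaks in replicate 2, of which 13 did. Many of the sharing genes were divergent. There were 12 pairs of members on opposite strands with TSSs 176 to 306 bp apart, and each joined an H2A gene to an H2B gene. In 9 pairs both genes were marked, and in these the 2 genes read the same tallest peak in 9 pairs in replicate 1 and in 8 pairs in replicate 2. At the 1 kb limit, the tallest peak of Hist1h3b began 1000 bp from its TSS in replicate 1 and 974 bp in replicate 2, and a peak of 8.57 tags lay on its TSS in replicate 1. Just outside the limit, the nearest peaks to Hist1h2ao and Hist1h2ap lay 1241 and 1253 bp away in replicate 1 and belonged to Hist1h4m and Hist1h4n.

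The duplicated end of the first Hist1 run stood apart. The genes Hist1h2bq, Hist1h2ao, Hist1h2ap and Hist1h2br, each encoding an H2A or H2B, had no peak within 1 kb in either replicate, and none of the 50-base words within 500 bp of their TSSs occurred only once in the genome. The 300-base RefSeq promoters of Hist1h2bq and Hist1h2br were identical at all 300 positions. Their last 120 bases before the start (chr13:21810200-21810319, minus strand, and chr13:21833623-21833742, plus strand) are shown with CCAAT boxes in capitals.
Hist1h2bq: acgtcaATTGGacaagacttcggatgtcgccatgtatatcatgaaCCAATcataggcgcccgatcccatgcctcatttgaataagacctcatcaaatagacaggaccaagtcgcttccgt
Hist1h2br: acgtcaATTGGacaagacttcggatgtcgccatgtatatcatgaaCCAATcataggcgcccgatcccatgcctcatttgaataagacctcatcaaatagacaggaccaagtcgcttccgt
A read of 50 bases from such a stretch cannot be assigned to 1 copy, so the lack of a peak at these 4 genes cannot be read as a lack of H3K4me3. The low values of Hist1h4m and Hist1h4n lay between these pairs, with 5.78% and 4.83% unique words.

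The values were highest where the sequence was most unique. Among the 22 members with at least 80% unique words, 19 were marked, with medians of 155.0 tags in replicate 1 and 175.3 tags in replicate 2. The 32 members with 50% to 80% unique words were all marked, with medians of 64.7 and 69.0 tags. Of the 13 members under 50%, 9 were marked, with medians of 80.2 and 70.1 tags. Even the most unique members had a median below the 215.8 and 222.3 tags of all marked genes. Over the 49 marked members whose tallest peaks were at least 50% unique, the median was 92.3 tags as the mean of both replicates, against 87.8 tags over all 60. The part of read placement in the low level of the family was not tested.

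**Figure D3:**
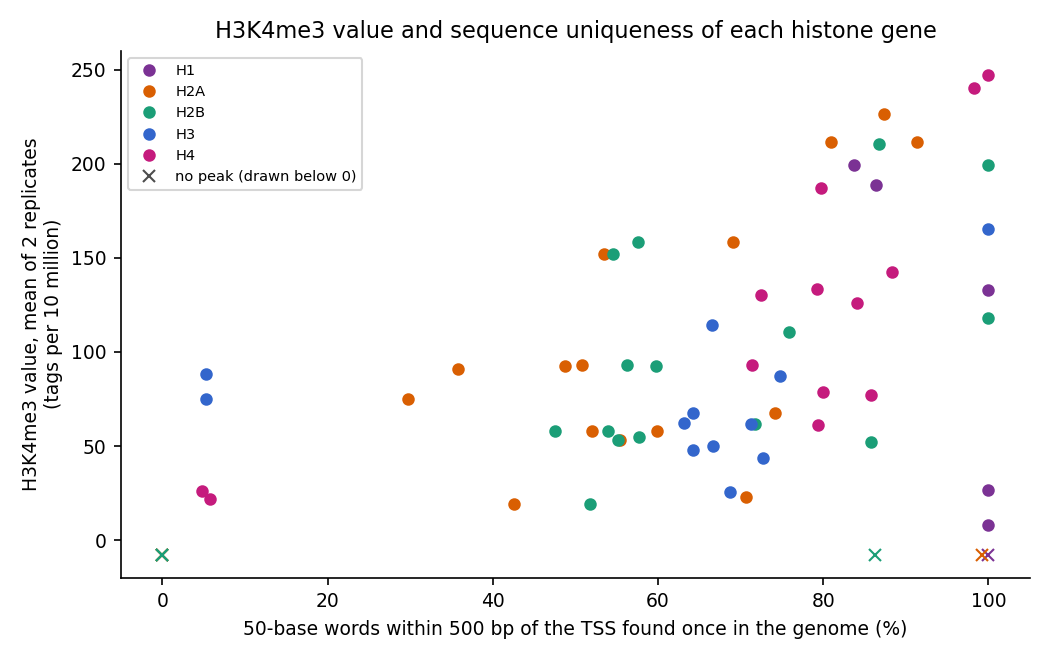
H3K4me3 value (mean of both replicates, tags per 10 M) against the share of 50-base words within 500 bp of the TSS that occur once in the genome, for each member, coloured by class; crosses below 0 are the 7 members with no peak. The 4 members with no unique word overlap at the left, and the median of the marked members was 165.2 tags at 80% or more unique words, 65.0 tags at 50% to 80% and 75.2 tags below 50%.

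CpG content, which goes with H3K4me3 at promoters in general, was lower at histone genes. In the 250 bases before to 50 bases after the GENCODE TSS, marked members had a median of 11 CpGs, against 21 for the other marked genes. Within each stratum the members were lower: with 9 CpGs or fewer, 22 members had a median of 92.3 tags against 130.4 tags for 1939 other genes, and with 10 to 19 CpGs, 32 members had 59.8 tags against 209.6 tags for 3639 other genes. With 20 CpGs or more, 6 members had a median of 89.6 tags against 244.9 tags for 6666 other genes. The part of CpG content in the level of the family was not tested.

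The lists of genes that work with the histones had higher medians than the histone genes, although some of their genes were low: H1fx, a linker histone variant named after its values had been seen, had 14.0 and 12.7 tags in replicates 1 and 2. All 11 genes listed as replication-independent histone variants were marked, with a median of 218.9 tags in replicate 1 and 240.2 tags in replicate 2. Such variants can supply histones outside S phase, and H2afx is listed with them although it had a stem-loop match. H2afj (335.0 and 401.3 tags) and H2afy (268.8 and 334.2 tags), which encode H2A.J and macroH2A1, were the tallest. H2afz and H2afv, which encode the H2A.Z proteins, had the most interactions of the list, 2 each, with 207.2 and 201.4 tags for H2afz and 220.5 and 255.1 tags for H2afv.

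All 15 genes for histone gene transcription and 3′ end processing were marked, with medians of 278.1 and 297.6 tags in replicates 1 and 2. Eri1, an exonuclease that trims histone mRNA ends, had 420.7 and 439.3 tags, and Yy1, a zinc finger transcription factor, had 344.4 and 361.0 tags. Cpsf2, a subunit of the cleavage complex, had 278.9 and 311.0 tags and 12 interactions, and Casp8ap2 (FLASH), a processing factor of the histone locus body, had 278.1 and 310.3 tags and 3 interactions. Npat and Slbp, named after their values had been seen, had 223.6 and 226.0 tags and 237.6 and 250.6 tags.

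All 20 S phase and proliferation genes were marked too, with medians of 163.6 and 161.1 tags, lower than those of all marked genes. Mcm7, a subunit of the replicative helicase, had 234.5 and 275.2 tags, and Cdk2, a kinase of S phase entry, had 268.0 and 227.5 tags. Mcm5, another helicase subunit, had 105.2 and 97 tags and 4 interactions, and Cdc6, a replication licensing factor, had 42.1 and 40.3 tags and 3 interactions. The 10 histone chaperone genes were all marked, with medians of 209.2 and 213.3 tags, and the tallest were Nasp (275.0 and 343.1 tags), the only one with an interaction, and Ubn1 (305.4 and 299.9 tags).

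**Figure D4:**
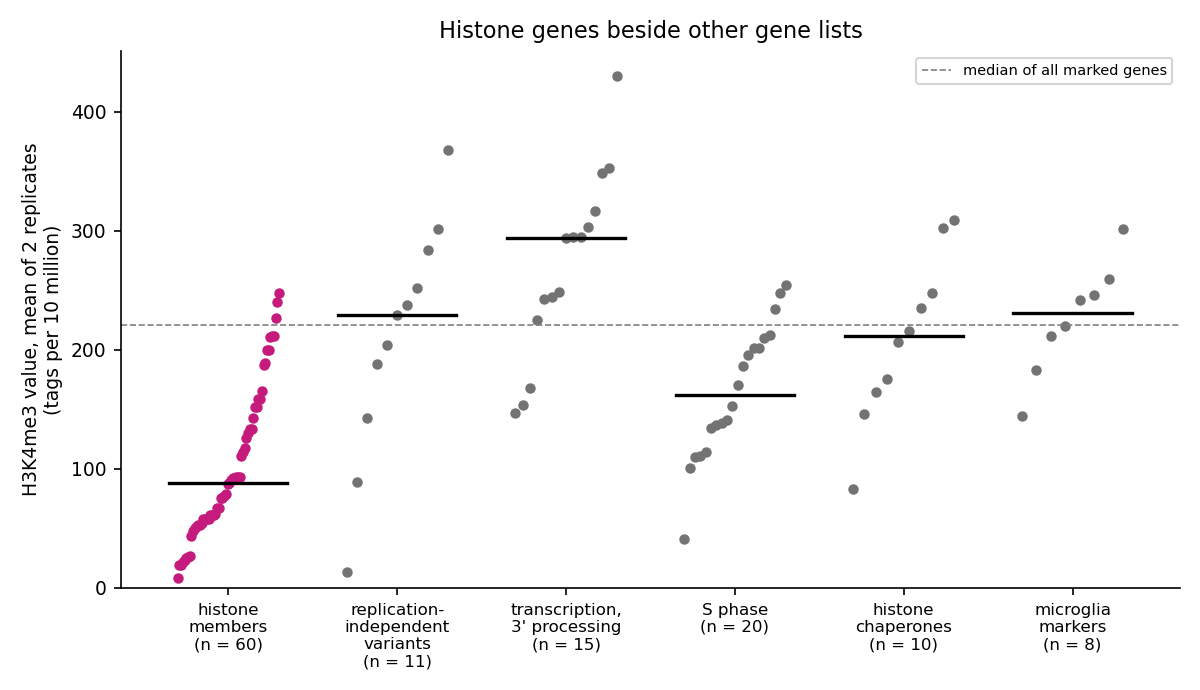
H3K4me3 value (mean of both replicates, tags per 10 M) of the marked histone genes and of the marked genes of 5 other lists; each point is 1 gene, black lines are list medians and the dashed line is the median of all marked genes. The histone median (87.8) is below that of every other list, of which the S phase genes have the lowest (161.8).

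PLAC-seq interactions were called between bins of 5 kb from both libraries together, so they have no replicate values. At least 1 interaction had an anchor bin with a histone TSS for 28 of 67 members, or 41.8%, against 24.7% of all autosomal protein-coding genes. Among marked genes only, the share was 28 of 60 members, or 46.7%, against 37.8%. Members share bins: the 67 genes occupied 37 bins, 22 of them with more than 1 member, and 15 bins carried all of the interactions. The 32 distinct interactions had a median distance of 207.5 kb, against 125.0 kb for all 26689 interactions of the list. Their median was 15 read pairs, at 3.71 times expected, against 17 read pairs and 4.03 times expected over the whole list. No interaction was called for the Hist3 and Hist4 genes. With the false discovery rate limited to 0.0001, 12 members and 10 interactions were left, with at least 20 read pairs 14 members and 12 interactions, and among cluster summits 8 members and 5 interactions. Over the whole list, 6177 of 26689 interactions were cluster summits. The shares of all genes under these limits are not given here, so the contrast with all genes holds for the full list only.

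Of the 32 interactions, 2 joined 2 bins with histone TSSs, and both lay within the third Hist1 run. In 3 more the partner bin held no histone TSS but overlapped the annotated span of a histone gene. The count depended on the rule for a bin, with 13 of 55 interactions joining 2 histone bins when a TSS could lie within 5 kb of the bin, and 0 of 5 among cluster summits. The bin of Hist1h1e and Hist1h2be met that of Hist1h2ac and Hist1h2bc 60 kb away with 24 read pairs against 10.9 expected (2.20 times, false discovery rate 0.00773). The bin of Hist1h1t and Hist1h4c met that of Hist1h1c 40 kb away with 31 read pairs against 9.54 expected (3.25 times, false discovery rate 2.07e-06). Hist1h1t, with almost no mark of its own, shares its bin with Hist1h4c, so its 4 interactions cannot be told apart from those of Hist1h4c. Distances in the list end at 1000 kb, and 1487.8 kb separate the second Hist1 run from the third, so a contact between them could not have been listed.

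Many partners held tRNA genes, a pattern that was examined after the interactions had been seen. Of the 30 interactions with a partner bin that held no histone TSS, 12 had a tRNA gene of the RefSeq annotation in the partner bin. Over distinct partner bins this was 9 of 25, or 36.0%, against 0.363% of the 25312 anchor bins of all interactions. tRNA genes are dense near these histone genes. They lay in 4.06% of the bins within 1 Mb of a histone bin and, of the 194 such bins with a peak in both replicates, in 36, or 18.6%. Of the 12 distinct partner bins with a peak in both replicates, 8 held a tRNA gene. PLAC-seq enriches for marked bins, and the part of this enrichment and of distance in the count was not tested.

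The 2 interactions with the highest ratios on chromosome 13 were of this kind. The bin of the divergent pair Hist1h2ah and Hist1h2bk met the tRNA bin at chr13:21160001-21165000, 875 kb away, with 17 read pairs against 2.37 expected (7.16 times, false discovery rate 4.53e-08). The neighbouring bin of Hist1h2ag, Hist1h2bj and Hist1h4i met the adjoining tRNA bin, also 875 kb away, with 11 read pairs against 1.98 (5.55 times). That same tRNA bin met Hist1h2ai, Hist1h2bl and Hist1h3h of the first run, 550 kb away, with 8 read pairs against 1.88 (4.27 times). Hist1h2bm met another tRNA bin 520 kb away with 9 read pairs against 2.30 (3.92 times). In the third run, Hist1h4h and Hist1h2af met 3 tRNA bins 85 to 100 kb away with 24 to 32 read pairs, 2.30 to 3.26 times expected.

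On chromosome 3, all 8 interactions came from 2 bins at the end of Hist2 with the highest coordinates. The bin of Hist2h3b and Hist2h2bb had 6 interactions, 170 to 240 kb away, and that of Hist2h4 had 2. Of these 8, 5 reached a bin with tRNA genes. Hist2h3b and Hist2h2bb had the highest ratio with a bin that held no RefSeq gene, 215 kb away (13 read pairs against 1.98, 6.55 times), and their most read pairs with a bin holding 1 tRNA gene, 170 kb away (24 against 4.65, 5.16 times). The latter bin also overlaps the RefSeq protein-coding gene BC107364. Hist2h4, the tallest Hist2 gene, met the 2 tRNA bins 235 and 240 kb away with 13 and 17 read pairs. The other 7 Hist2 genes, among them Hist2h2ab, Hist2h2ac and Hist2h2be, which share a tall peak in replicate 1, had none.

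**Figure D5:**
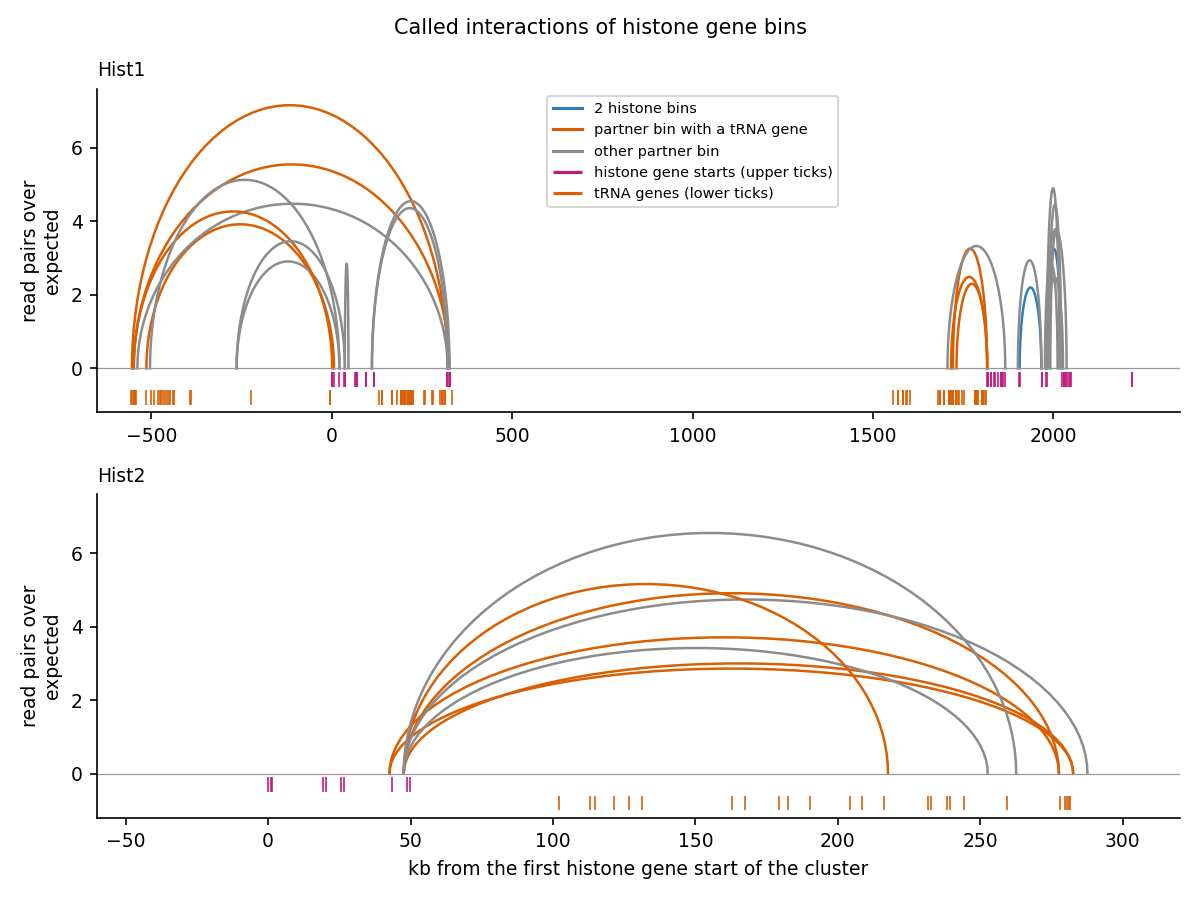
Interactions of histone TSS bins on chromosome 13 (Hist1, top) and chromosome 3 (Hist2, bottom); arcs join bin centres by distance in kb from the first histone TSS, arc height is read pairs over expected, and ticks mark histone TSSs (upper) and tRNA genes (lower). Orange arcs end in a bin with a tRNA gene, 12 of the 32, and blue arcs join 2 histone bins, 2 of the 32.

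The TSS bin of another protein-coding gene was reached by 4 of the 32 interactions. Hist1h4j and the bin of Hist1h2ak, Hist1h2bn and Hist1h4k both met the bin of Zscan26, a SCAN-domain zinc finger gene, 285 and 300 kb away (2.91 and 3.46 times expected). Hist1h2ah and Hist1h2bk met that of Trim27, a ubiquitin ligase gene, 860 kb away (4.48 times), and Hist1h4d met that of Abt1, a transcriptional activator gene, 160 kb away (3.33 times). Hist1h1c had 3 interactions, 1 with the Hist1h1t and Hist1h4c bin and 2 with bins that overlap the Hfe gene, of which 1 had the most read pairs of any histone interaction (38 against 10.2, 3.72 times). The Hist1h1t and Hist1h4c bin also met 3 bins 30 to 45 kb away on both sides of the Hist1h1c bin (2.47 to 4.90 times), of which the farthest overlaps Hist1h1c and Hist1h3c. The remaining interactions of named members were that of Hist1h2ab and Hist1h3b with a bin 60 kb away that overlaps the Hist1h2bc gene (3.79 times), the second one of Hist1h2ac and Hist1h2bc, with a bin 65 kb away that overlaps the Hist1h2be gene (2.94 times), that of Hist1h4j at 525 kb (5.13 times), that of Hist1h2ak, Hist1h2bn and Hist1h4k with a bin 10 kb away (2.85 times), and those of the 2 bins of the second run with the bin chr13:21825001-21830000 between Hist1h4m and Hist1h4n, 210 and 215 kb away (4.36 and 4.55 times).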

How the data were processed

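Microglia were sorted from wild-type mice, and 2 H3K4me3 ChIP-seq libraries, 2 inputs and 2 PLAC-seq libraries entered here. Separate animals are not stated for the replicates, whose spread may thus be technical. For each ChIP library the authors deposited a peak list with HOMER's columns (Bowtie2, HOMER and mm10 are named in the submitters' processing notes): the signal, a normalized tag count per 10 M tags, the tag counts, the input signal scaled to the ChIP depth, and the fold (ratio) over input. Peaks had a fixed size of 184 bp in replicate 1 and 188 bp in replicate 2, so a value is a height and not a width. Depth was recovered as tags over value. For PLAC-seq the authors deposited 1 list for both libraries, called with MAPS in bins of 5 kb, with read pair counts, expected counts and a false discovery rate (an adjusted p-value) of at most 0.01. Read pairs per library were not used here, so PLAC-seq depth is unknown, and a pair of bins outside the list was not called, which does not show a lack of contact. The study's methods name the ENCODE pipeline for the peaks that guided MAPS, so these may differ from the deposited peaks. Hi-C was not analysed here.

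TSSs were those of protein-coding transcripts of the GENCODE M21 basic set, and tRNA genes and promoters came from RefSeq (GRCm38.p6). Copies of each 50-base word were counted over both strands of the genome. The stem-loop was searched in the 300 bases after each stop codon. Counting intervals were exact binomial at the 95% level. Python 3.11.15, pandas, NumPy and SciPy were used, and the functions were tested on simulated data. There was no comparison of conditions, so no test was run. The members, gene lists and motifs were chosen with earlier results of these data known. Values of both replicates were given for the 3 tallest and 2 lowest marked members of each class, every member with an interaction and all members outside Hist1, and, from the other lists, for the 2 tallest marked genes and the 2 with most interactions. The uniqueness and CpG strata and the tRNA genes were chosen after the data had been seen. Alternatives were the distance to the TSS, single replicates, stricter peaks, overlapping peaks, summed peaks, unique peaks, all transcripts, and for interactions the false discovery rate, read pairs, cluster summits and the bin rule. The start codon in place of the TSS, and the nearest TSS only, were added after seeing the data.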

Additional observations from a re-analysis of the deposited data

How the results depend on the processing

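The count of marked histone genes was 60 and ranged from 52 to 65 under all alternatives except 1: when a peak had to lie on the TSS itself, 17 genes were marked, with a median of 52.5 tags and 0.341 of the median of all marked genes, and the cause was not tested. The share of all genes with a peak on the TSS is not given here. The limit of 2 kb brought in Hist1h1d and the 4 duplicate genes, and counting a peak only for its nearest TSS left 52 genes. The median value of marked members, 87.8 tags as the mean of both replicates, was 82.5 tags at 500 bp and 105.2 tags with peaks summed. Without 1 replicate it ranged from 81.7 to 88.8 tags, and the ratio to all marked genes from 0.370 to 0.419. That ratio lay between 0.341 and 0.426 under every alternative run. The counts of interactions depended on the calling threshold. A false discovery rate of at most 0.0001 left 12 histone genes, 10 interactions and 1 between 2 histone bins. At least 20 read pairs left 14 genes and 12 interactions. Cluster summits alone left 8 genes, 5 interactions and 0 between histone bins. The shares of all genes under these limits are not given here. A TSS within 5 kb of the anchor bin gave 55 interactions, of which 13 joined 2 histone bins, as neighbouring bins then count too. No paired analysis was possible because no groups were compared. PLAC-seq depth limits every absence of an interaction.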

Other observations

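The non-coding relatives of the family differed. The pseudogene Hist1h2aj, in the first Hist1 run, had peaks of 63.1 tags in replicate 1 and 46.2 tags in replicate 2 within 1 kb, which are also the tallest peaks of Hist1h2bm. The pseudogene Hist3h2bb-ps lay within 1 kb of the tallest peak of Hist3h2a, with 232.2 and 220.8 tags. Hist1h2al, a processed pseudogene on chromosome 13 outside the runs, had no peak within 1 kb. With the start codon in place of the TSS, the count of marked members was again 60 and the median was 89.6 tags. Of the 262 autosomal bins with a RefSeq tRNA gene, 132 had a peak in both replicates, or 50.4%.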
